A study of Homo sapiens with 18 samples.

Results

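Histone genes were taken from the tables by symbol: 74 replication-dependent genes, whose symbols begin with HIST1H, HIST2H, HIST3H or HIST4H, and 8 replacement genes, H1F0, H1FX, H2AFX, H2AFZ, H2AFV, H2AFY, H3F3A and H3F3B. These 82 genes were among 28063 listed. The series counted converted reads, a measure of newly made RNA, in 18 libraries in 9 groups of 2. The established human neuroblastoma cell lines KELLY, SK-N-DZ and IMR-32 were given DMSO or 1 uM BRM014, which inhibits SMARCA4 and SMARCA2, the motor subunits of SWI/SNF chromatin remodelling complexes. A derivative of IMR-32, SMARCA4-mAID, carries a degron on SMARCA4 through which auxin triggers destruction of the protein, and was given ethanol or 500 uM auxin. All these cells were also given 500 uM of the nucleoside 4-thiouridine (4sU) for 2 h before harvest, and 2 further KELLY libraries were left without it. How long BRM014 and auxin were applied, and whether the degron line is 1 clone, the labels do not say.

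Replication-dependent histone genes supply the nucleosomes of newly copied DNA and are transcribed mainly in S phase. Their messenger RNAs normally end just past a conserved stem-loop and carry no poly(A) tail, so poly(dT) capture, used for these libraries, recovers them poorly. Some can also be made as longer, polyadenylated transcripts, which are known from differentiating and non-dividing cells. Replacement histone genes are expressed through the cell cycle, have ordinary polyadenylated messenger RNAs and supply variants such as H3.3, H2A.Z, H2A.X and macroH2A.

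The 3-prime ends show which annotated transcripts could carry a tail. The following pieces, from GENCODE 29 transcripts and written 5′ to 3′, are the ends of genes with results given below, with HIST1H4J, which had 5 labelled counts and was not tested, as an example of a transcript that stops just past the stem-loop. Capitals mark the stem-loop in the first 3 lines and the poly(A) hexamer (AATAAA or ATTAAA) in the others.
HIST2H2BE stem-loop: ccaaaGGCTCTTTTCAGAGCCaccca
H2AFX stem-loop: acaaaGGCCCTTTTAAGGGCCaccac
HIST1H4J stem-loop: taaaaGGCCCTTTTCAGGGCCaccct
HIST2H2BE transcript end: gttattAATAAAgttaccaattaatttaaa
H2AFX transcript end: gactaattttATTAAAggattgtttttttt
H3F3B transcript end: atgagactaaAATAAAatttttgaagttaa
H2AFZ transcript end: ggataagttcAATAAAggtcatatcccaaa
H1FX transcript end: ttgggcacAATAAAgcgtttaaacctttca
Counted from the last base of the stem-loop, the annotated transcript of HIST1H4J (a histone H4 gene) ends after 6 bases, that of HIST2H2BE (an H2B gene) after 1729 bases, and the longest of H2AFX after 1044. The H2AFX stem-loop shown is from that longest transcript (1614 bases), but the end shown is from a shorter one (1373 bases). The conserved histone stem-loop, 16 bases with both arms and the loop as in the capitals above but any base at its variable positions, was searched on the transcript strand and was held by 69 of 206694 annotated transcripts, of which 50 belonged to the histone genes studied. Of the 74 replication-dependent genes, 17 had a transcript reaching at least 100 bases past the stem-loop to a hexamer in its last 40 bases, 16 had another stem-loop transcript, and 41 had none in the annotation, many of those models being coding sequence only.

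HIST2H2BE, the replication-dependent gene with the clearest change, lies at chr1:149884459-149886652 on the minus strand of GRCh38 and is annotated as protein coding. Its promoter window from RefSeq (GRCh38.p14, where it is named H2BC21), chr1:149886633-149886932 on the minus strand, is shown because this gene changed in each of the 3 lines treated with BRM014. The octamer ATTTGCAT, CCAAT and TATAAA are in capitals, searched on both strands.
HIST2H2BE promoter: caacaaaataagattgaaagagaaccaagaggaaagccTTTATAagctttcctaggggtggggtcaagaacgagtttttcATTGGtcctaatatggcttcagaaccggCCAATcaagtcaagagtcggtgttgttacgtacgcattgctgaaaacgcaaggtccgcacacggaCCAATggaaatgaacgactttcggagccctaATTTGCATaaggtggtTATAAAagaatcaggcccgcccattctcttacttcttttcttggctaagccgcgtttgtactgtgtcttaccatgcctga
The octamer, the element bound by OCT1 at H2B promoters, was present in 10 of 15 windows of replication-dependent H2B genes, in 11 of 16 H2A windows, and in 1 of 34 windows of the other families. Over all 35116 promoter windows of 300 bases its share was 1.77%. CCAAT was in 55 of 65 replication-dependent windows against 34.61% of all windows, and TATAAA in 44 of 65 against 11.53%. Of 11 windows of replacement genes, 8 held CCAAT, 4 TATAAA and 1 the octamer. Promoters were matched for 68 of the 82 genes. Some genes, among them HIST1H2BD and HIST1H2BK, had more than 1 window with nearby starts, so these are counts of windows, not genes. Many H2A and H2B genes share a divergent promoter, so their windows overlap and are not independent.

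The labelled libraries held 724913 to 1740475 gene counts and the unlabelled ones 4432 and 5395. Depth differed with treatment: in SK-N-DZ the BRM014 libraries had 724913 and 758288 counts and the DMSO libraries 1589230 and 1740475, and in IMR-32 the figures were 741970 and 775064, and 1438139 and 1148208. Raw counts given below are not scaled for this, whereas CPM, log2 changes and ratios are. Among neuroblastoma markers, MYCN had 2524 to 12024 counts per labelled library and HAND2 508 to 2118, while the lowest counts of DBH and CHGA were 0 and 1. None of 10 markers of blood, endothelium, epithelium and fibroblasts exceeded 4 counts, and 5 were at 0 throughout. No treatment comparison called SMARCA4 RNA (with auxin, log2 change -0.35, SE 0.12, adjusted p = 0.109 by edgeR's quasi-likelihood test). Auxin acts on the protein, which RNA counts do not check. Nothing says that a pair of libraries stems from separate cultures. The p-values therefore cover only how these libraries vary, possibly for technical reasons. In bulk samples, fewer cells in a given phase and less RNA per cell cannot be told apart.

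Almost all histone counts came from replacement genes. Over the 16 labelled libraries these 8 genes gathered 50089 counts, 0.240% of all gene counts (exact 95% interval 0.238% to 0.242%). The 74 replication-dependent genes gathered 1546, or 0.0074% (0.00704% to 0.00778%), which is 32.4 times fewer. These intervals cover counting error only. As CPM (counts per 1000000, scaled by TMM factors) divided by transcript length, the median gene was at 80.2 CPM per kb in the replacement class and 0.340 in the replication-dependent class.

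Of the replication-dependent genes, 55 had at least 1 labelled count, 24 had 10 or more, and 19 had none, among them the duplicated pairs HIST2H2AA3 and HIST2H2AA4, HIST2H3A and HIST2H3C, and HIST2H4A and HIST2H4B. Reads of such identical copies map to more than 1 place and can be lost in counting, so a 0 there is uncertain. The 20 H2B genes held 955 counts and the 18 H2A genes 327, against 124 for 15 H3 genes, 93 for 15 H4 genes and 47 for 6 H1 genes. By annotated end, the 17 genes whose transcripts run past the stem-loop had a median of 21 labelled counts and 0.742 CPM per kb. The 41 genes with no annotated stem-loop had 2 counts and 0.224 CPM per kb. These medians are descriptions, and annotated length differs between the kinds. HIST2H2BE alone gave 28.7% of the replication-dependent counts, and the 12 genes with the highest mean CPM gave 78.7%. These 12 were, in order, HIST2H2BE, HIST1H2BK, HIST3H2A, HIST1H2BD, HIST2H2BC, HIST1H2AC, HIST1H2BG, HIST1H2AG, HIST1H2AK, HIST1H4E, HIST1H2BH and HIST1H1C.

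H3F3A, one of a pair of genes for histone H3.3, was listed at 0 in all 18 libraries, while H3F3AP4, annotated as a processed copy of it, had 28 to 148 counts per labelled library. How reads were divided between these near-identical copies is not given, so neither value measures H3F3A. The filter on low counts kept 7 replacement genes (all but H3F3A) and 8 replication-dependent genes, so 15 of the 82 were tested, among 12853 genes in all. A member that passed through 1 high group only had to differ, so counts over these 15 are descriptions.

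**Figure D1:**
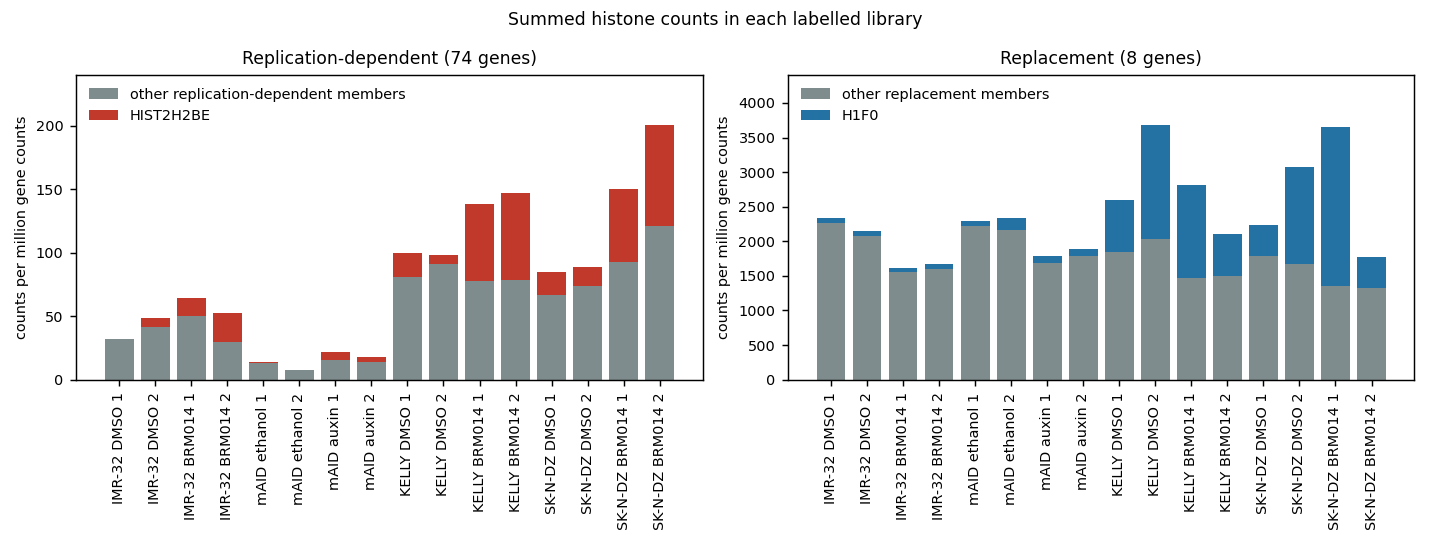
Summed counts of the 74 replication-dependent genes (left, HIST2H2BE in red) and of the 8 replacement genes (right, H1F0 in blue), in counts per 1000000, 1 bar per labelled library. Replication-dependent totals stay at or below 200.5 counts per 1000000, and H1F0 makes up the uneven part of the replacement total in KELLY and SK-N-DZ.

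In counts per 1000000 gene counts, replication-dependent transcripts of IMR-32 summed to 40.4 ± 11.9 (SD, n = 2) after DMSO and 58.8 ± 8.34 after BRM014. KELLY had 98.9 ± 1.46 and 142.8 ± 6.58, and SK-N-DZ 87.0 ± 2.91 and 175 ± 35.4. The SMARCA4-mAID line was lowest, with 10.9 ± 4.25 in ethanol and 19.9 ± 2.69 in auxin. In each pair both treated libraries lay above both vehicle libraries. The log2 ratios were 0.54 ± 0.48 in IMR-32, 0.53 ± 0.07 in KELLY, 1.01 ± 0.30 in SK-N-DZ and 0.86 ± 0.61 with auxin (SD of the ratio), and no test was made on these sums. Much of the higher sums came from HIST2H2BE. Without that gene the log2 ratio was 0.11 in IMR-32, where the libraries then overlapped (32.0 and 41.8 after DMSO, 49.9 and 29.7 after BRM014), -0.14 in KELLY, 0.61 in SK-N-DZ and 0.48 with auxin.

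Replacement transcripts of IMR-32 summed to 2243 ± 137 counts per 1000000 after DMSO and 1644 ± 46.0 after BRM014. In the degron line they were at 2310 ± 28.3 in ethanol and 1840 ± 65.8 in auxin, again without overlap. KELLY (3138 ± 760 and 2460 ± 511) and SK-N-DZ (2651 ± 591 and 2714 ± 1329) overlapped, and H1F0 differed between libraries of a group. With H1F0 left out, a choice made after its counts were seen, KELLY had 1940 ± 133 and 1484 ± 28.99, and SK-N-DZ 1732 ± 77.1 and 1337 ± 17.0.

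HIST2H2BE, which encodes an H2B, rose with BRM014 in all 3 lines. In KELLY the DMSO libraries had 30 and 8 counts and the BRM014 libraries 91 and 104, or 12.04 ± 8.42 and 63.0 ± 5.04 CPM (SD, n = 2). In SK-N-DZ the counts were 29 and 27 with DMSO and 42 and 60 with BRM014, and the levels 16.1 ± 1.77 and 65.8 ± 14.1 CPM. In IMR-32 the counts were 0 and 8 with DMSO and 11 and 18 with BRM014, and the levels 3.66 ± 5.18 and 20.8 ± 6.42 CPM. Every BRM014 library stood above both DMSO libraries of its line. The log2 change was 2.34 in KELLY (SE 0.47, adjusted p = 0.000116), 2.03 in SK-N-DZ (SE 0.47, adjusted p = 0.000559) and 2.61 in IMR-32 (SE 0.69, adjusted p = 0.00458), all by edgeR's quasi-likelihood test with Benjamini-Hochberg adjustment over all tested genes. In IMR-32 HIST2H2BE no longer passed without DMSO replicate 1 (1.49, adjusted p = 0.243) or BRM014 replicate 2 (2.21, adjusted p = 0.0869). In KELLY it passed either way, at 3.35 without DMSO replicate 1 and 1.80 without DMSO replicate 2. The mean over the 3 lines was 2.32 (SE 0.32, adjusted p = 2.71e-09), and the test for a difference among lines did not pass (adjusted p = 0.924). The interval of the difference between SK-N-DZ and KELLY ran from -1.83 to 1.21, so differences of that size could not be seen.

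With auxin, HIST2H2BE had 9 and 6 counts against 1 and 0 in ethanol, 2 libraries against 2 without overlap. The ratio was 15.8, with an exact 95% counting interval of 2.43 to 664.5, and the test missed the threshold (log2 change 3.64, SE 1.11, adjusted p = 0.0621). Over its alternatives the adjusted p ran from 0.0348 to 0.503. Its share of all replication-dependent counts was 2.94% in ethanol and 25.4% in auxin. From DMSO to BRM014 the share went from 7.84% to 32.6% in IMR-32, from 13.6% to 45.2% in KELLY and from 19.3% to 39.1% in SK-N-DZ. HIST2H2AC, the H2A gene next to it, had 0 or 1 count in every labelled library, so its direction was not detectable at this depth.

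Most other replication-dependent genes had too few counts to show a change. HIST2H2BC, annotated as a transcribed pseudogene of H2B, had 0 and 0 counts in IMR-32 with DMSO and 5 and 3 with BRM014. Taking 3 counts over both libraries as the floor, it was 4.70-fold higher, with a lower counting bound of 3.011-fold. It was called (adjusted p = 0.0356 by edgeR), but not after leaving out any 1 of these 4 libraries (adjusted p from 0.0561 to 0.207), nor with offsets for transcript length and base composition (adjusted p = 0.0528). It shares its position with HIST2H2BD on the opposite strand, and the strand setting of the counting is not given. The other 6 tested genes, HIST1H2AC, HIST1H2AK, HIST1H2BD, HIST1H2BG, HIST1H2BK and HIST3H2A, were called in none of the 4 treatment comparisons.

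HIST1H2BK (H2B) had 14 and 8 counts after DMSO and 11 and 8 after BRM014 in IMR-32, where scaled for depth both BRM014 libraries lay higher. KELLY went from 28 and 11 to 16 and 14, SK-N-DZ from 4 and 5 to 2 and 2, and the degron line from 2 and 2 in ethanol to 3 and 7 in auxin. Its fitted log2 changes lay between -0.38 in KELLY and 1.32 with auxin. HIST1H2BD (H2B) had 17 and 15 counts after DMSO and 13 and 20 after BRM014 in KELLY. IMR-32 went from 6 and 4 to 3 and 2, SK-N-DZ from 5 and 4 to 6 and 2, and the degron line from 0 and 1 to 7 and 1. Treated and vehicle libraries overlapped in each BRM014 comparison. HIST1H2AC (H2A) had 22 and 16 counts in KELLY with DMSO and 7 and 11 with BRM014, 11 and 5 and then 2 and 0 in SK-N-DZ, but 1 and 1 and then 2 and 4 in IMR-32, and 0 in all 4 degron libraries. Its log2 change was -1.11 in KELLY (SE 0.94, adjusted p = 0.535 by edgeR).

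HIST3H2A (H2A) varied widely within groups, with 0 and 15 counts in IMR-32 DMSO and 7 and 40 in SK-N-DZ DMSO. After BRM014 IMR-32 had 4 and 3 and SK-N-DZ 11 and 17, while KELLY went from 10 and 5 to 4 and 2. The degron line had 0 and 2 in ethanol and 2 and 1 in auxin. HIST1H2BG (H2B) was as uneven, with 0 and 12 counts in SK-N-DZ with BRM014 and 3 and 9 with DMSO, 2 and 14 against 2 and 1 in KELLY, 0 and 0 against 3 and 0 in IMR-32, and 0 and 0 in auxin against 0 and 2 in ethanol. HIST1H2AK (H2A) had 8 and 9 counts in SK-N-DZ with BRM014 and 3 and 6 with DMSO, 3 and 1 against 2 and 3 in KELLY, and 0 in the 8 IMR-32 and degron libraries. Scaled for depth, the SK-N-DZ ratio was 4.26 (counting interval 1.80 to 10.9), but the test did not pass (adjusted p = 0.247 by edgeR). HIST1H2AK overlaps HIST1H2BN on the opposite strand.

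HIST1H2BH, HIST1H4E, HIST1H2AG and HIST1H1C did not pass the filter. HIST1H2BH (H2B) had 0 counts in all 6 BRM014 libraries, while DMSO gave 7 and 4 for KELLY, 1 and 8 for SK-N-DZ, and 1 and 3 for IMR-32. Set against a floor of 3 counts over both libraries, it was 3.80-fold lower in KELLY and 1.33-fold lower in SK-N-DZ. These values leave out the counting error of the DMSO libraries. The lower end of the counting interval was 2.602-fold in KELLY and 0.8745-fold in SK-N-DZ. In SK-N-DZ that interval therefore includes no change. With ethanol HIST1H2BH had 4 and 4 counts and with auxin 3 and 4. Without a filter, 47 further histone genes entered the test and HIST1H2BH alone among them passed, in the mean over the 3 lines (adjusted p = 0.0154 by edgeR). HIST1H4E (H4), whose transcript runs past the stem-loop, had 1 and 1 counts in KELLY with DMSO and 4 and 10 with BRM014. Scaled for depth, it had 6.75 times as much (counting interval 1.55 to 61.2). In SK-N-DZ it had 1 and 0 and then 7 and 2, a ratio of 20.3 (2.82 to 890.4). IMR-32 went from 0 and 3 to 0 and 0 and the degron line from 0 and 0 to 2 and 0, too few to give a direction there. HIST1H2AG (H2A) had 5 and 7 counts in SK-N-DZ with DMSO and 10 and 5 with BRM014, 5 and 1 and then 1 and 3 in KELLY, 2 and 0 and then 0 and 0 in IMR-32, and 0 in the degron line. Its ratio in SK-N-DZ was 2.82 (1.23 to 6.60). The intervals of HIST1H4E and HIST1H2AG cover counting error only and leave out the spread between libraries. Without the filter, neither gene had an unadjusted p below 0.05 by edgeR in KELLY or SK-N-DZ. HIST1H1C (linker histone H1) had 6 and 7 and then 0 and 1 in SK-N-DZ, 7 and 4 and then 11 and 0 in KELLY, and at most 1 elsewhere.

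**Figure D2:**
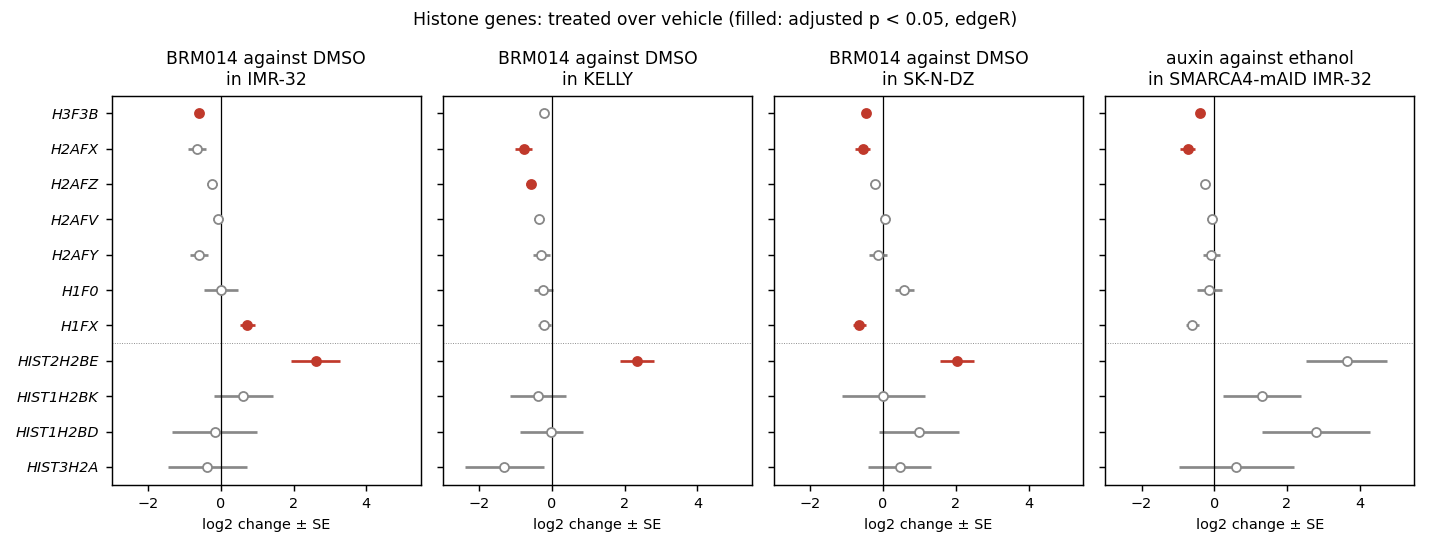
Log2 change of treated over vehicle with its standard error (edgeR) for the 7 tested replacement genes and 4 of the 8 tested replication-dependent genes in the 4 comparisons; filled points passed an adjusted p of 0.05. HIST2H2BE stands at 2.03 to 3.64, and H3F3B and H2AFX lie below 0 in every comparison. H1FX lies above 0 in IMR-32 and below 0 in the rest. With offsets for length and thymine share, H2AFX was at 0.17 and H1FX at 0.18 in SK-N-DZ. H1FX then lay above 0 in KELLY too.

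Counted over both classes, 3 of the 15 tested genes rose and 1 fell with BRM014 in IMR-32, where 12.8% of all tested genes were called. Of all tested genes 6.26% rose there and 6.57% fell. In KELLY 1 histone gene rose and 2 fell, against 11.6% of all genes called (6.57% higher, 4.98% lower). In SK-N-DZ 1 rose and 3 fell, against 19.4% (9.88% higher, 9.55% lower). With auxin 2 fell, against 2.19% (1.03% higher, 1.16% lower). No replication-dependent gene passed with auxin in the main edgeR fit, where 1, HIST2H2BE, had an unadjusted p below 0.05. HIST2H2BE was called in 13 of its 23 alternatives, among them the replicate block, but not by DESeq2 (adjusted p = 0.168). These shares rest on 2 to 4 genes, so little can be read from them. By class, the median log2 change of the tested replacement genes was -0.24, -0.29, -0.22 and -0.25 in IMR-32, KELLY, SK-N-DZ and the degron line, where the medians of all genes were -0.02, 0.00, -0.04 and 0.00. The medians of the 8 replication-dependent genes, 0.31, -0.19, 0.72 and 0.90, are of low-count genes with large errors.

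In the mean BRM014 effect over the 3 lines HIST2H2BE rose and H3F3B, H2AFX and H2AFZ fell, 4 of 15, while 30.2% of all tested genes were called (14.8% higher, 15.3% lower). H3F3B, the second gene for histone H3.3 (chr17:75776434-75785893, minus strand), had the most counts of any histone gene over the 16 labelled libraries. That was 38.8% of replacement counts. In KELLY and SK-N-DZ with DMSO, H1F0 had a higher mean. In IMR-32 the levels of H3F3B went from 1511 and 1383 CPM with DMSO to 938.5 and 980.5 with BRM014. In the degron line they were 1392 and 1346 in ethanol and 1008 and 1091 in auxin. SK-N-DZ went from 601 and 548 to 451 and 381 with BRM014. No treated library reached a vehicle library in these pairs. The log2 change was -0.59 in IMR-32 (SE 0.09, adjusted p = 5.2e-07), -0.47 in SK-N-DZ (SE 0.10, adjusted p = 0.000165) and -0.38 with auxin (SE 0.09, adjusted p = 0.00448), by edgeR. The auxin call was lost without ethanol replicate 1 (adjusted p = 0.0831) or auxin replicate 1 (adjusted p = 0.145). KELLY had 780 and 894 CPM with DMSO and 742 and 683 with BRM014, and its change of -0.23 (SE 0.09) did not pass (adjusted p = 0.0887). Over the 3 lines the mean was -0.43 (SE 0.05, adjusted p = 2.3e-10). Reads of UNK on the opposite strand and of H3F3A copies could enter this count.

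H2AFX, which encodes the variant phosphorylated at DNA breaks (chr11:119093854-119095467, minus strand), was the replacement gene whose annotated transcript carries a stem-loop. It had 86.9 and 63.1 CPM in KELLY with DMSO and 41.2 and 46.7 with BRM014. SK-N-DZ went from 225 and 229 to 137 and 169. The degron line had 123 and 102.5 in ethanol and 74.01 and 61.8 in auxin. All 3 pairs were without overlap, as were 102.9 and 109.8 against 54.5 and 80.1 CPM in IMR-32. It fell by 0.78 in KELLY (SE 0.23, adjusted p = 0.0115), by 0.57 in SK-N-DZ (SE 0.20, adjusted p = 0.0284) and by 0.74 with auxin (SE 0.21, adjusted p = 0.0354) on the log2 scale, by edgeR. The change of -0.65 in IMR-32 (SE 0.24) missed the threshold (adjusted p = 0.0526), and the mean over lines was -0.67 (SE 0.13, adjusted p = 1.31e-05).

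None of these H2AFX calls was kept in a fit with offsets for transcript length and base composition. Converted reads need uridines, and thymine makes up 17.7% of the H2AFX transcript, a lower share than in all but 6.10% of tested genes (median 25.6%). With offsets for length and thymine share the log2 change was -0.30 in KELLY (adjusted p = 0.495), 0.17 in SK-N-DZ (adjusted p = 0.642), -0.61 with auxin (adjusted p = 0.104) and -0.10 in the mean over lines (adjusted p = 0.632), by edgeR. The calls were also lost in KELLY without BRM014 replicate 1 or DMSO replicate 1, in SK-N-DZ without BRM014 replicate 1 or either DMSO library, and with auxin without any 1 of the 4 degron libraries. H3F3B, with 29.6% thymine, kept its 3 calls with these offsets, at -0.72 in IMR-32, -0.66 in SK-N-DZ and -0.48 with auxin, and passed in KELLY too (-0.34, adjusted p = 0.00404). HIST2H2BE, with 29.4% thymine, was at 2.48 for IMR-32, 2.24 for KELLY and 1.85 for SK-N-DZ, all called. Length and thymine share were fitted together, and the part of either in the lost H2AFX calls was not tested.

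H2AFZ, which encodes H2A.Z, the variant found at promoters and enhancers (chr4:99948086-99950388, minus strand), fell in KELLY. Its levels there were 363 and 405 CPM with DMSO and 248 and 266 with BRM014, a log2 change of -0.58 (SE 0.12, adjusted p = 0.000308 by edgeR). In IMR-32 (278 and 246, then 208 and 237 CPM), SK-N-DZ (283 and 285, then 247 and 239) and the degron line (324.5 and 310.0, then 244 and 290) the treated libraries also lay below the vehicle ones, without passing (log2 changes -0.24, -0.22 and -0.25). The mean over lines was -0.35 (SE 0.08, adjusted p = 0.000185), and the effect was not shown to differ among lines (adjusted p over the alternatives from 0.31 to 0.70). H2AFV, the gene for the second H2A.Z protein, had 316 and 348 CPM in KELLY with DMSO and 248 and 269 with BRM014. That log2 change of -0.36 (SE 0.13) came to an adjusted p of 0.0505 by edgeR, and to 0.0274 with DESeq2. In IMR-32 it had 275 and 268, then 252 and 264 CPM, in SK-N-DZ 244 and 212, then 225 and 248, and in the degron line 240 and 261, then 240.0 and 240.8, with log2 changes between -0.07 and 0.06. H2AFY, which encodes macroH2A, a variant associated with silent chromatin, had 140 and 114 CPM in IMR-32 with DMSO and 88.4 and 80.1 with BRM014 (log2 change -0.60, SE 0.24, adjusted p = 0.0909). Its other levels lay between 60.1 and 91.2 CPM.

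**Figure D3:**
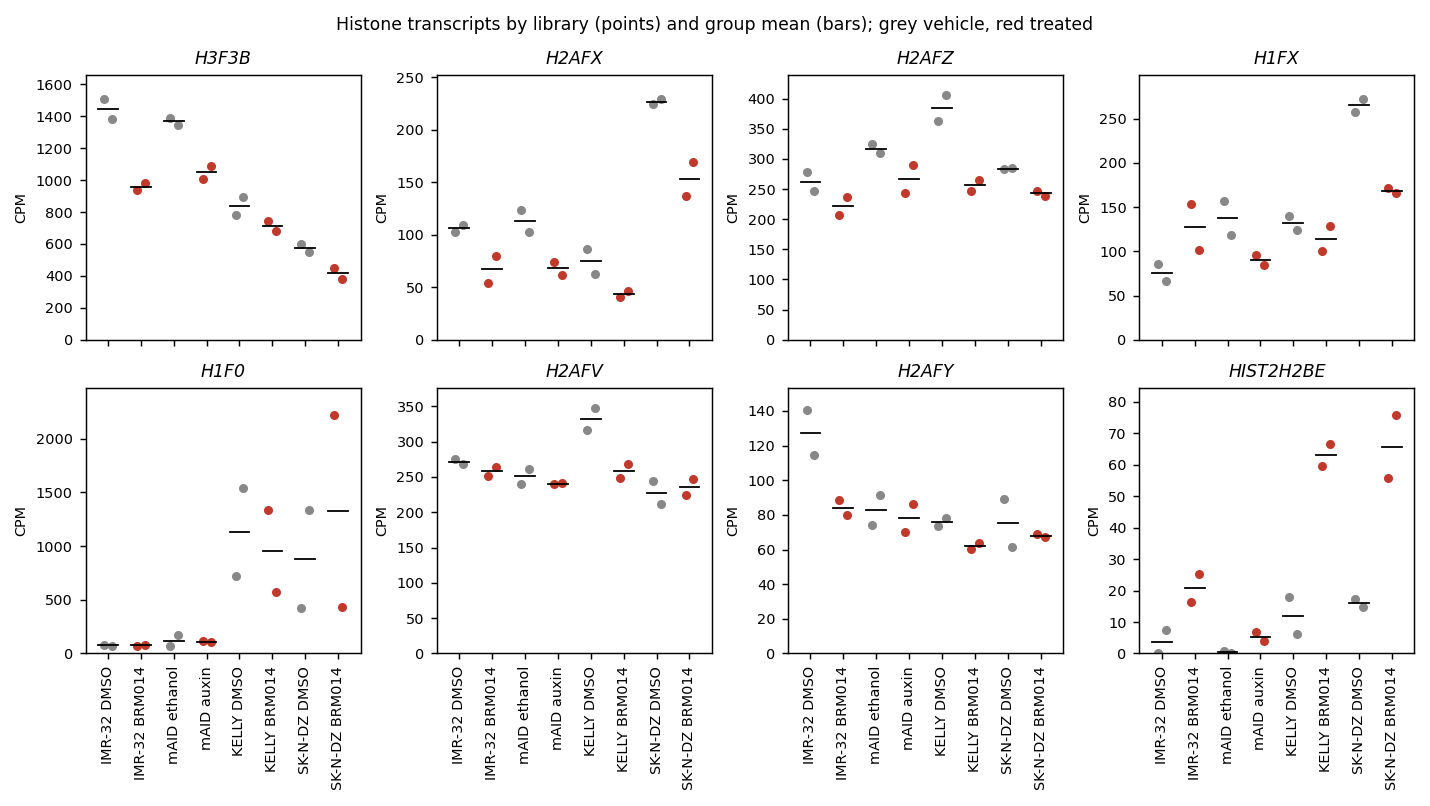
CPM scaled by TMM factors of the 7 tested replacement genes and HIST2H2BE in each labelled library (points; grey vehicle, red treated) with group means (black bars); each panel has its own linear axis from 0. HIST2H2BE in KELLY and SK-N-DZ stands at 55.8 to 75.8 CPM with BRM014 and at 6.09 to 17.99 with DMSO, and H1F0 spreads from 431 to 2221 CPM within 1 group.

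H1FX, a linker histone of the H1 family (chr3:129314771-129316277, minus strand), changed in opposite directions in IMR-32 and SK-N-DZ with all libraries and no offsets. In IMR-32 it had 86.0 and 65.9 CPM with DMSO and 153 and 101 with BRM014, and rose (log2 change 0.73, SE 0.21, adjusted p = 0.0117 by edgeR). In SK-N-DZ it went from 258 and 273 to 171.5 and 165.5 with BRM014, and fell (log2 change -0.66, SE 0.18, adjusted p = 0.00395). In KELLY the levels were 140 and 124, then 101 and 128 CPM, which overlap (log2 change -0.21, SE 0.18). The degron line had 156 and 118 in ethanol and 95.7 and 85.0 in auxin, a change of -0.60 (SE 0.19) that did not pass (adjusted p = 0.0662). The effect of BRM014 differed among lines (adjusted p = 0.000694), where 6.47% of all tested genes were called and H1FX was the 1 histone gene of 15. SK-N-DZ minus IMR-32 was -1.39 (SE 0.28, adjusted p = 0.000411, 2.61% of all genes called), and IMR-32 minus KELLY was 0.94 (SE 0.28, adjusted p = 0.0371, 3.28%). The effect of BRM014 in IMR-32 exceeded that of auxin by 1.33 (log2, SE 0.28, adjusted p = 0.0016, 1.95% of all genes called). SK-N-DZ minus KELLY gave 0 edgeR calls among the 15 (2 at an unadjusted p below 0.05), where 3.9% of all genes were called.

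Several measurements bear on H1FX. The IMR-32 rise was lost without BRM014 replicate 1 (0.37, adjusted p = 0.474) or DMSO replicate 2 (0.55, adjusted p = 0.179), and without BRM014 replicate 1 the 4 tests of its difference between groups were lost as well. IMR-32 minus KELLY was also lost without DMSO replicate 2 of IMR-32 or replicate 1 of either KELLY group. Thymine makes up 15.2% of its transcript, with only 1.09% of tested genes lower. With offsets for length and thymine share it was at 1.27 in IMR-32, 0.31 in KELLY and 0.18 in SK-N-DZ (adjusted p = 0.591), so the fall in SK-N-DZ reversed sign, while the test among lines still passed (adjusted p = 0.00945). The part of thymine share in these changes was not tested. H1FX overlaps H1FX-AS1 on the opposite strand, and the strand setting is not given.

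H1FX had the highest background of the 7 tested replacement genes. The unlabelled KELLY libraries, in which no conversion by 4sU is possible, held 34 and 10 counts of H1FX against 234 and 163 in labelled KELLY with DMSO. That is 11.1% (exact 95% interval 7.93% to 15.2%), where all genes gave 0.348%. These percentages divide raw counts by raw counts. H1F0 had 2 and 13 unlabelled counts (0.464%), H3F3B 1 and 2 (0.121%), H2AFV 0 and 2 (0.203%), H2AFX 1 and 0 (0.439%) and H2AFZ 0 and 1 (0.0878%). H2AFY had 0, which allows up to 1.33% if 3 counts are taken as the limit of a count of 0 (exact 95% upper bound 1.65%). All replacement genes came to 0.760% (0.588% to 0.968%), above the share over all genes. With H1FX left out, a choice made after its counts were seen, they came to 0.266% (0.166% to 0.402%). That interval includes the share over all genes. These intervals cover counting error only, and the 2 libraries held 4 and 18 of the counts without H1FX. The part of this background in the H1FX changes was not tested, and IMR-32 and SK-N-DZ have no unlabelled library.

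Replication-dependent genes had 4 unlabelled counts, all in replicate 1, from HIST1H2BI (3) and HIST1H2BJ (1), both H2B genes. Against 280 labelled counts this is 1.43% (0.387% to 3.70%), and 0 without that library. HIST2H2BE had 0 unlabelled counts, which against its 38 labelled DMSO counts allows a background of up to 7.9% at that limit of 3 counts (exact 95% upper bound 10.2%).

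**Figure D4:**
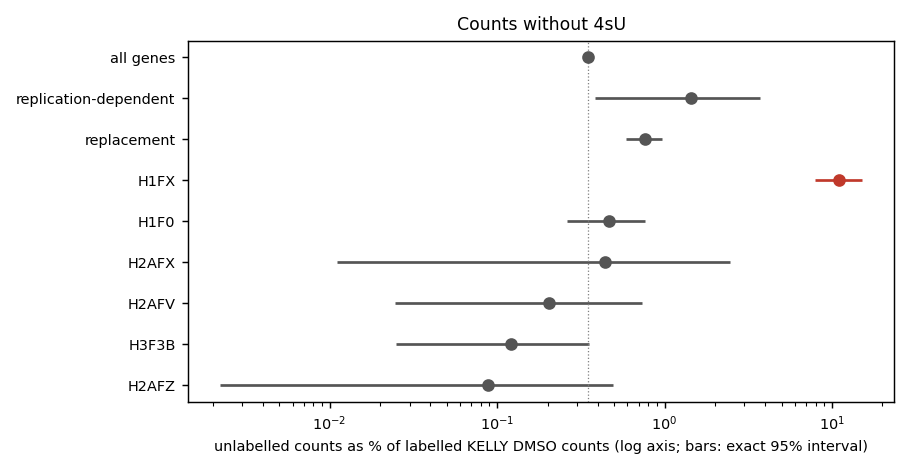
Counts in the unlabelled KELLY libraries as a percentage of counts in labelled KELLY DMSO libraries (log axis), with exact 95% intervals, for all genes, both histone classes and 6 replacement genes; the dotted line is the share over all genes, 0.348%. H1FX stands at 11.1%, apart from the other genes.

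H1F0, the linker histone of resting and differentiated cells (chr22:37805093-37807436, plus strand), was called in no treatment comparison with all libraries and the default dispersion, and was the least repeatable replacement gene. Its levels were 720 and 1543 CPM in KELLY with DMSO and 1335 and 576 with BRM014, 425 and 1335 in SK-N-DZ with DMSO, and 2221 and 431 with BRM014. These groups overlap, and the largest ratio within a group was 5.16. The SD between libraries of a group was 0.90 on the log2 scale, above 96.0% of tested genes. Which of its libraries was kept set the direction in SK-N-DZ, with -1.04 (adjusted p = 0.000942 by edgeR) without BRM014 replicate 1, 1.33 (adjusted p = 1.49e-08) without BRM014 replicate 2, and 1.64 (adjusted p = 4.03e-12) without DMSO replicate 2. It was called in SK-N-DZ in 16 of 24 alternatives. In KELLY it was at -0.97 without BRM014 replicate 1 and at -0.69 without DMSO replicate 1, but reached 0.40 with another library left out. The direction in KELLY therefore also depended on which libraries were kept. With all libraries the SK-N-DZ value was 0.58 (SE 0.27, adjusted p = 0.115), with offsets for length and composition it was 1.02 and passed (adjusted p = 0.00363), and robust dispersion estimates, added after this spread was seen, gave an adjusted p of 0.707. IMR-32 had far less, with 80.9 and 67.7 CPM with DMSO and 67.8 and 82.9 with BRM014, and the degron line had 64.8 and 172 in ethanol and 115 and 103 in auxin.

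Without treatment the lines differed in many transcripts, those of histone genes among them. Among IMR-32, KELLY and SK-N-DZ in DMSO, 58.0% of all tested genes were called. Of the 15 histone genes 10 were (66.7%), a share near that of all genes. The 10 were all 7 replacement genes and HIST1H2AC, HIST2H2BC and HIST2H2BE. H3F3B went from 1447 ± 90.6 CPM (SD, n = 2) in IMR-32 to 837 ± 80.4 in KELLY and 575 ± 37.7 in SK-N-DZ, with no overlap. H2AFX was at 227 ± 3.21 CPM in SK-N-DZ, 106 ± 4.87 in IMR-32 and 75.0 ± 16.8 in KELLY. H1FX was at 265 ± 10.3 in SK-N-DZ, 132 ± 11.5 in KELLY and 76.0 ± 14.2 in IMR-32, a difference that was lost with the offsets (adjusted p = 0.198 by edgeR). H1F0 was at 74.3 ± 9.30 in IMR-32, 1132 ± 582 in KELLY and 880 ± 643 in SK-N-DZ. Without IMR-32 DMSO replicate 1 the differences of HIST2H2BE (adjusted p = 0.358), H2AFY (0.128), HIST1H2AC (0.123) and HIST2H2BC (0.0961) among lines no longer passed. Those of HIST1H2AC and HIST2H2BC were also lost without IMR-32 DMSO replicate 2 (0.0928 and 0.069), and that of HIST1H2AC without either KELLY library (0.1 and 0.0725). For H1F0, KELLY and SK-N-DZ overlapped and both stood above IMR-32 (adjusted p = 9.36e-18, and 0.027 with robust dispersion). Per kb of transcript in DMSO, H3F3B ranked above the other histone genes in IMR-32 (535 CPM per kb), and H1F0 had the highest mean in KELLY (483) and SK-N-DZ (375).

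Genes of the same supply chain were set beside the histones. Of 40 DNA replication genes, 22 fell in IMR-32, 19 in KELLY and 31 in SK-N-DZ with BRM014, 3 fell with auxin, and none rose, where 6.57%, 4.98%, 9.55% and 1.16% of all tested genes fell. This pattern was already known from these data, so it is no independent support. MCM4, a subunit of the replicative helicase, fell by 1.16 in IMR-32, by 0.70 in KELLY and by 1.20 in SK-N-DZ (log2). Of 17 genes of histone supply and 3-prime processing, 3, 1, 3 and 1 fell in the 4 comparisons and none rose, with medians between -0.16 and -0.11. CASP8AP2, a histone locus body protein needed for histone gene expression, fell by 0.65 in IMR-32 (adjusted p = 6.61e-05), by 0.43 in SK-N-DZ (adjusted p = 0.0126) and by 0.48 with auxin (adjusted p = 0.0102), and was at -0.30 in KELLY (adjusted p = 0.127), by edgeR. NPAT, the activator of replication-dependent histone genes, fell by 0.83 in IMR-32, and SLBP, which binds the stem-loop, by 0.56.

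Of 28 histone chaperone and deposition genes, 7 fell and 2 rose in IMR-32. The figures were 3 and 1 for KELLY, 6 and 4 for SK-N-DZ, and 0 and 0 with auxin. Of all tested genes, 6.57% fell and 6.26% rose in IMR-32, and 4.98% and 6.57% in KELLY. In SK-N-DZ these shares were 9.55% and 9.88%, and with auxin 1.16% and 1.03%. HJURP, the chaperone of the centromeric variant CENP-A, fell by 1.12 in IMR-32, by 0.50 in KELLY and by 0.46 in SK-N-DZ. HIRA, which deposits H3.3, fell by 0.90 in IMR-32 (adjusted p = 0.0211 by edgeR). ASF1A, a chaperone of H3 and H4, rose by 0.91 in SK-N-DZ, and NAP1L1, a chaperone of H2A and H2B, rose by 0.36 in IMR-32 and 0.42 in SK-N-DZ. Of 14 further histone variant genes 4 were tested. H3F3C, a copy of H3F3B, fell in SK-N-DZ (adjusted p = 0.0402), and none of the 4 was called in the other 3 comparisons.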

How the data were processed

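The authors deposited raw counts per gene symbol for each of 18 libraries, named as conversion counts; the submitters' processing notes name HISAT, HTSeq, DESeq2 and hg38 but no roles. Annotation, strand setting and the rule for a converted read: not given in the sources used here. RNA was alkylated and captured on poly(dT), per the labels' protocols. The 5 summary lines of each file, among them reads without a feature (46.4% to 57.4% of labelled totals), were left out. A model with 1 mean per group was fitted to the 16 labelled libraries in edgeR 4.0.16 (R 4.3.3), with TMM factors, filterByExpr (12853 genes), the quasi-likelihood test and Benjamini-Hochberg adjustment over all tested genes. A gene was called below an adjusted p of 0.05. The biological coefficient of variation was 0.143, with 8 residual degrees of freedom. TMM scaling makes log2 changes relative within each library. Libraries of a group differed by more than sampling noise (chi-square per degree of freedom 2.36 to 3.31). Named were all 8 replacement genes, the 12 replication-dependent genes with the highest mean CPM, further called ones, and up to 4 genes per list by smallest p; HIST2H2AC, HIST1H2BI, HIST1H2BJ and HIST1H4J were named after their values or sequences were seen. Members, lists and rules were chosen with earlier results of these data known. Coordinates and transcripts are from GENCODE 29 (GRCh38).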

Additional observations from a re-analysis of the deposited data

Results flagged for a closer look

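H1FX, the linker histone gene, had an effect of BRM014 that differed between groups, by tests of the difference itself. The test among the 3 lines gave an adjusted p of 0.000694 (edgeR, 2 libraries per group). The log2 effect in SK-N-DZ minus that in IMR-32 was -1.385, and that in IMR-32 minus KELLY was 0.94. In IMR-32 the effect of BRM014 exceeded that of auxin in the degron line by 1.332. Both BRM014 libraries of IMR-32 lay above both DMSO libraries, and in SK-N-DZ both lay below. With offsets for transcript length and thymine share the SK-N-DZ change became 0.178, while the test among lines still passed (adjusted p = 0.00945). Without IMR-32 BRM014 replicate 1 none of the 4 tests passed. The background of 11.1% in unlabelled KELLY libraries stands beside these values, and its part in them was not tested.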

How the results depend on the processing

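Replicate numbers did not pair the libraries (correlations of deviations between -0.034 and 0.011). With the replicate block 2 histone genes were called in the test among lines (main value 1) and 1 in SK-N-DZ minus KELLY (main value 0), and the same counts came with the block plus offsets, and without a filter. HIST2H2BC in IMR-32 was lost with the block (adjusted p = 0.0539) and HIST2H2BE with auxin passed (adjusted p = 0.0348, edgeR). H1F0 in SK-N-DZ (0.442, adjusted p = 0.0094) and H2AFX in IMR-32 (adjusted p = 0.0451) passed with the block as well. Fitting the compared groups alone gave 5 calls in KELLY (main value 3) and 0 in IMR-32 minus KELLY (main value 1), which was also 0 without a filter. Offsets for length and composition left 1 call with auxin (main value 2). With these offsets, and with offsets plus block, the SK-N-DZ changes of H1FX became 0.178 and 0.177 and of H2AFX 0.169 and 0.168. Their cause was not tested.

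Leaving out 1 library at a time gave 2 to 5 calls in IMR-32, 3 to 4 in KELLY, 3 to 5 in SK-N-DZ, 0 to 4 with auxin and 4 to 6 in the mean over lines. The range was 0 to 2 among lines, 0 to 1 in SK-N-DZ minus KELLY, 0 to 2 in SK-N-DZ minus IMR-32, 0 to 2 in IMR-32 minus KELLY, 0 to 1 in IMR-32 minus auxin, and 6 to 11 among vehicles. A lone library left in a group is assumed to vary like the others. Replication-dependent log2 ratios ran from 0.27 to 0.878 in IMR-32, 0.482 to 0.576 in KELLY, 0.789 to 1.204 in SK-N-DZ and 0.512 to 1.326 with auxin. Replacement ratios ran from -0.509 to -0.384, -0.58 to -0.08, -0.579 to 0.463 and -0.365 to -0.292. The unlabelled share ran from 0.0 to 2.857% for replication-dependent and from 0.6452 to 0.8756% for replacement genes.

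Over members kept by the filter alone, replication-dependent ratios were 1.022 in IMR-32, 0.701 in KELLY and 1.818 with auxin. Without HIST2H2BE they were 0.108 in IMR-32, -0.141 in KELLY, 0.608 in SK-N-DZ and 0.477 with auxin. Without H3F3B, replacement ratios were -0.186 in IMR-32 and -0.257 with auxin. Relative to the share over all genes, unlabelled shares were 4.11 times as high for replication-dependent and 2.187 times for replacement genes. The first value rests on 4 unlabelled counts, all in replicate 1, and the second was 0.764 with H1FX left out. Of single-gene results, 34 lost and 80 gained a call when 1 library was left out, and 13 lost and 38 gained one under the other settings. Under those other settings 4 called entries changed sign, the SK-N-DZ changes of H1FX and H2AFX with offsets and with offsets plus block, given above. These figures count a gene once per comparison and setting, so 1 result can enter several times. Few counts limit the replication-dependent genes: 8 of 74 could be tested.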
